A study of Mus musculus with 6 samples.

Results

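The genes described here are 10 genes of the Leydig cell, the androgen-producing cell of the testis: the steroid-synthesis genes Star, Cyp11a1, Hsd3b1, Hsd3b6, Cyp17a1 and Hsd17b3, the aldo-keto reductase gene Akr1cl, the hormone gene Insl3, the receptor gene Lhcgr and the transcription factor gene Nr5a1. They were listed by name, with earlier results of these data known, and were found through their Ensembl identifiers in the GENCODE M21 annotation. All 10 were present among the 51826 genes of the count tables and all 10 were among the 21518 genes with enough counts to be tested. RNA was measured by bulk sequencing in testis of 8-week-old C57BL/6J mice, in 3 samples labelled wild-type and 3 labelled KIFC1 knockout. KIFC1 is a kinesin motor that moves towards the minus ends of microtubules. The sources used here give neither the construction of the knockout allele nor whether each sample is 1 animal. The p-values therefore describe variation among these 6 samples, and part of that variation could be technical.

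Leydig cells lie between the seminiferous tubules. Luteinizing hormone from the pituitary binds their receptor LHCGR and raises cAMP, which drives STAR to carry cholesterol into mitochondria. There CYP11A1 cuts the side chain to give pregnenolone, and 3-beta-hydroxysteroid dehydrogenases, CYP17A1 and HSD17B3 complete the route to testosterone, which spermatogenesis requires. NR5A1, also called SF-1, is the transcription factor that activates many of these genes, and INSL3 is a peptide hormone made by the same cells.

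Library totals ran from 29274603 to 38703606 counts. Kifc1, the targeted gene, was at 14.7 to 16.1 CPM (counts in each 1000000, after scaling of the libraries) in wild type and 0.282 to 0.737 CPM in knockout, a log2 fold change of -5.09 (SE 0.35, edgeR quasi-likelihood test with Benjamini-Hochberg adjusted p = 0.00378). Wild type 1 stood apart from wild type 2 and 3 for the genes described here. The libraries also differed in base composition: across genes, each library's deviation from the mean of all 6 followed GC content with Spearman's rho of 0.244, 0.522 and 0.526 in wild type 1, 2 and 3 and of -0.265, -0.667 and -0.12 in knockout 1, 2 and 3, as a description over genes that are not independent. Fold changes are therefore also given from a fit in which each library's trend with GC content and exon length was removed.

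Hsd3b1 and Hsd3b6 are close copies, which bears on how far their counts can be told apart. Hsd3b1 (chromosome 3, 98852194 to 98859794) and Hsd3b6 (chromosome 3, 98805504 to 98814443) both lie on the minus strand, and their coding sequences of 1122 bases are identical at 1010 positions. The stretch below, bases 210 to 361 of both coding sequences from the GENCODE M21 transcripts, holds their longest identical run, of 72 bases, with the 8 differing bases in capitals.
Hsd3b1: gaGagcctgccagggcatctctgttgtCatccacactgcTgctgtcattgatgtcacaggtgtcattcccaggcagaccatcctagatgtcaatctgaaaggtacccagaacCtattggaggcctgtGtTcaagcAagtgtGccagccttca
Hsd3b6: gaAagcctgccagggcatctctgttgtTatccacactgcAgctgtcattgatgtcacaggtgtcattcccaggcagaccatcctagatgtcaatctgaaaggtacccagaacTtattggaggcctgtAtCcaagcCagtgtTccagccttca
Of all windows of 50 bases in the transcripts of each gene, 4.86% for Hsd3b1 and 15.7% for Hsd3b6 also occur in transcripts of another gene, and most of those of Hsd3b6 are shared with Hsd3b2 and Hsd3b3. Hsd3b2 and Hsd3b3 themselves held 1 to 7 and 1 to 13 counts per library. The sources used here do not say how reads that map to several places were counted. The counts of Hsd3b1 and Hsd3b6 are therefore uncertain in the shared windows. The 2 genes share 38 windows with each other, of 1851 for Hsd3b1 and 1801 for Hsd3b6. Insl3 (chromosome 8, 71689214 to 71690575, plus strand) shares 404 of its 623 exon bases with exons annotated to Jak3, a cytokine-receptor kinase gene on the same strand, and its level is uncertain for that reason. Akr1cl overlaps the pseudogene Gm8550 on the opposite strand over 11.7% of its exon bases, Cyp11a1 overlaps the noncoding gene Gm17322 over 3.02%, and the span of Nr5a1 overlaps its antisense gene Nr5a1os with 0 shared exon bases.

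Promoter sequences from RefSeq (GRCm38.p6) were matched for 7 of the 10 genes, and none was matched for Star, Cyp17a1 and Nr5a1. The 2 printed here, 250 bases up to the start site and read in the direction of the gene, belong to Akr1cl and Insl3. Akr1cl is the 1 gene that passed the test, and Insl3 has the most GC-rich longest transcript of the 10 genes. Capitals mark matches, on either strand, to the letters AAGGNCA or CAAGGNC of NR5A1-type sites, 2 motifs that overlap each other.
Akr1cl, chr1:65032760-65033009, minus strand: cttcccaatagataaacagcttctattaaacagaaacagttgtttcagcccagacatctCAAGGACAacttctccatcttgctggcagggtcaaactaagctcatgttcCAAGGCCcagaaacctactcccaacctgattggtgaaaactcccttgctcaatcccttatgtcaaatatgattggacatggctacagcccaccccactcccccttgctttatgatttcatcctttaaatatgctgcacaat
Insl3, chr8:71689002-71689251, plus strand: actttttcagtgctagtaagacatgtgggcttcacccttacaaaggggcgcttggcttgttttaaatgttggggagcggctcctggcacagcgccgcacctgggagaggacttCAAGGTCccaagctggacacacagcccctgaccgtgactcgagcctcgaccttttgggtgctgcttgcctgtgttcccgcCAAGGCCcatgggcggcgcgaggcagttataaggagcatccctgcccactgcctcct
The Akr1cl stretch has 44.0% GC and the Insl3 stretch 59.2%. The exact letters AAGGTCA were found in the windows of 0 of the 7 genes, against 4.72% of all 32851 windows of 300 bases. AAGGNCA was found for 1 of the 7, Akr1cl, against 20.3% of all windows. CAAGGNC, chosen after the windows had been read, was found for 2 of the 7, Akr1cl and Insl3, against 17.8% of all windows. These are matches of letters in short windows and say nothing of binding.

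Of the 10 genes, 1 rose in knockout testis and 0 fell (edgeR quasi-likelihood test, Benjamini-Hochberg adjusted p under 0.05 over all genes). The share of all tested genes that rose was 3.11% and the share that fell was 5.12%. At an unadjusted p under 0.05, 5 of the 10 genes were higher and 0 lower, against 12.1% of all tested genes higher and 15% lower. DESeq2 called 4 of the 10 higher and 0 lower, where it called 8.49% of all its genes higher and 9.7% lower. The estimated log2 fold change, knockout over wild type, was above 0 for 8 genes and below 0 for 2, with a median of 0.85 where the median of all tested genes was -0.01. For 5 genes all 3 knockout samples lay above all 3 wild-type samples, as they did for 14.6% of all tested genes. For 0 genes did the knockout samples all lie below, against 18.1% of all tested genes. In bulk samples such as these, a change in the share of cells of a type and a change in RNA per cell cannot be told apart.

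**Figure D1:**
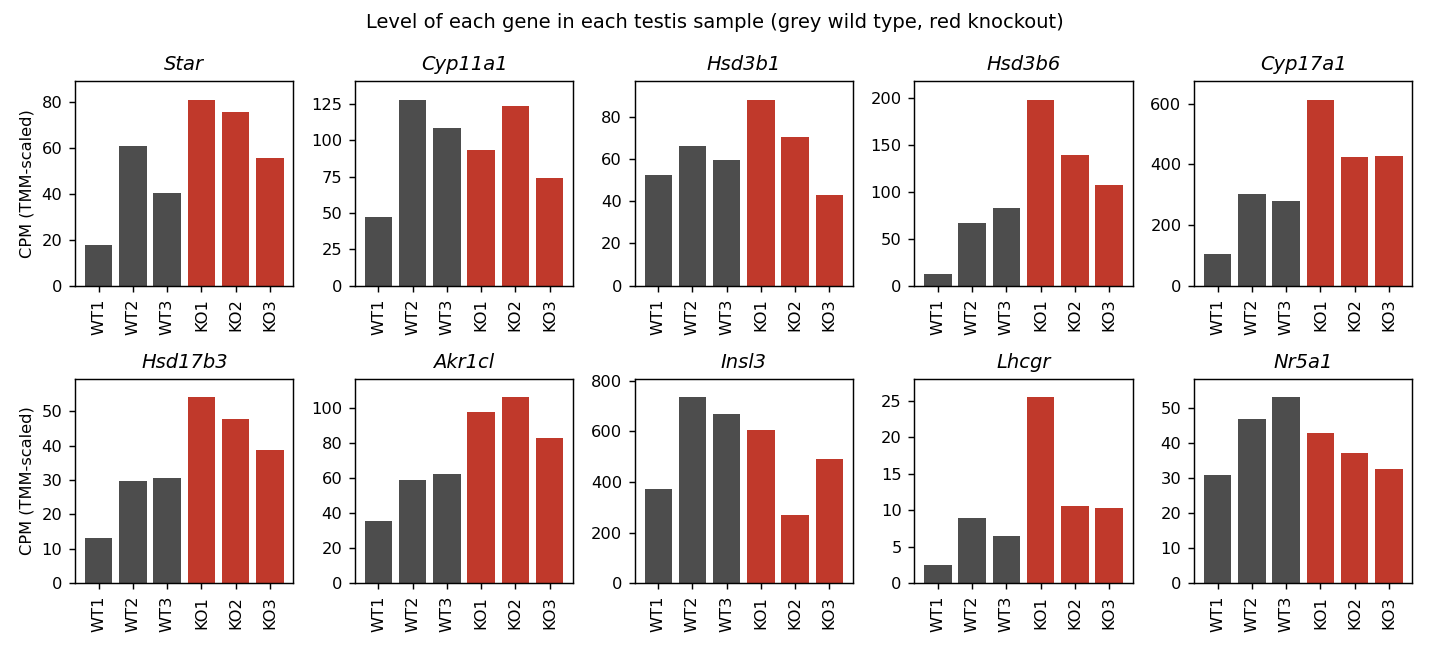
Bars give the TMM-scaled level in CPM (vertical axis, from 0, scaled separately for each gene) in each of the 3 wild-type (grey) and 3 knockout (red) samples. Wild type 1 is the lowest wild-type sample for all 10 genes, against 41.6% of all tested genes. Hsd3b6, Cyp17a1, Hsd17b3, Lhcgr and Akr1cl do not overlap between the groups.

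The first steps of the pathway are cholesterol import and side-chain cleavage. Star (ENSMUSG00000031574, chromosome 8, 25806555 to 25815982, plus strand) measured 17.5, 60.8 and 40.5 CPM in wild type 1, 2 and 3, against 81.2, 75.9 and 55.8 CPM in knockout 1, 2 and 3. Wild type 2 lay above knockout 3, so the groups overlapped. The mean of Star was 39.6 ± 21.7 CPM in wild type against 71.0 ± 13.4 CPM in knockout (SD, n = 3). The log2 fold change, 0.84 with an SE of 0.38, did not pass (edgeR adjusted p = 0.193). Cyp11a1 (ENSMUSG00000032323, chromosome 9, 58006411 to 58027023, plus strand) measured 47.5, 128 and 108.5 CPM in wild type 1, 2 and 3, against 93.6, 123.9 and 73.8 CPM in knockout 1, 2 and 3. All 3 knockout samples of this enzyme gene lay between wild type 1 and wild type 2. Its log2 fold change was 0.04 (SE 0.34, adjusted p = 0.958), and without wild type 1 it was -0.26 (SE 0.22, adjusted p = 0.543).

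Of the 2 genes of 3-beta-hydroxysteroid dehydrogenase, the enzyme that turns pregnenolone into progesterone, Hsd3b6 separated the groups and Hsd3b1 did not. Hsd3b1 (ENSMUSG00000027871) was nearly level within wild type, at 52.2, 65.8 and 59.5 CPM, and spread more widely in knockout, at 88.0, 70.2 and 43.0 CPM. Knockout 3 was the lowest of all 6 samples and knockout 1 the highest, and the log2 fold change was 0.18 (SE 0.25, adjusted p = 0.678). Hsd3b6 (ENSMUSG00000027869), the isoform associated with adult Leydig cells, measured 12.6, 67.0 and 82.9 CPM in wild type 1, 2 and 3, against 198.7, 139.8 and 107.6 CPM in knockout 1, 2 and 3. Its groups did not overlap, and its wild-type samples spanned a 6.59-fold range, the widest within either group for any of the 10 genes. The log2 fold change of 1.46 was the largest of the 10 (SE 0.56, adjusted p = 0.133), and it was 1.01 without wild type 1 (SE 0.27, adjusted p = 0.0962).

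The enzymes that complete androgen synthesis were at higher levels in every knockout sample. Cyp17a1 (ENSMUSG00000003555, chromosome 19, 46667165 to 46673172, minus strand), whose product converts progestagens to androstenedione, measured 104.1, 301.4 and 278.1 CPM in wild type 1, 2 and 3, against 613.0, 422.4 and 426.9 CPM in knockout 1, 2 and 3. The log2 fold change was 1.097 (SE 0.36), which missed the threshold with edgeR (adjusted p = 0.0902) and passed it with DESeq2 (adjusted p = 0.01). Hsd17b3 (ENSMUSG00000033122, chromosome 13, 64058266 to 64089230, minus strand), whose product makes testosterone from androstenedione, measured 13.2, 29.6 and 30.5 CPM in wild type 1, 2 and 3, against 54.0, 47.6 and 38.6 CPM in knockout 1, 2 and 3. Its lowest knockout sample lay above its highest wild-type sample, and the log2 fold change was 0.94 (SE 0.30, edgeR adjusted p = 0.0879, DESeq2 adjusted p = 0.0136). Without wild type 1 the values were 0.77 for Cyp17a1 (SE 0.21, edgeR adjusted p = 0.101) and 0.66 for Hsd17b3 (SE 0.19, edgeR adjusted p = 0.11).

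Akr1cl (ENSMUSG00000025955, chromosome 1, 65012689 to 65032759, minus strand), which encodes a member of the aldo-keto reductase family, was the gene that rose. It measured 35.6, 58.7 and 62.5 CPM in wild type 1, 2 and 3, against 97.6, 106.0 and 82.5 CPM in knockout 1, 2 and 3, with no overlap. The mean rose 1.82-fold, from 52.3 ± 14.6 CPM in wild type to 95.4 ± 11.9 CPM in knockout (SD, n = 3). On the log2 scale this was 0.87 with an SE of 0.22 (edgeR adjusted p = 0.0472). The call was lost with any 1 of the 6 samples left out, with adjusted p values from 0.0684 to 0.154, and with the GC and length trends removed (log2 fold change 0.74, SE 0.22, adjusted p = 0.105). Its direction was the same in each of these fits.

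Insl3 (ENSMUSG00000079019) encodes an insulin-like peptide hormone that acts in descent of the testis. It measured 373.3, 734.4 and 670.0 CPM in wild type 1, 2 and 3, against 607.2, 269.7 and 489.3 CPM in knockout 1, 2 and 3. Knockout 2 was the lowest of all 6 samples and the groups overlapped, with a log2 fold change of -0.38 (SE 0.33, adjusted p = 0.49). Jak3, which shares exon bases with Insl3, was at 13.2 to 18.7 CPM in wild type, against 10.7 to 14.2 CPM in knockout.

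The receptor for luteinizing hormone passes the pituitary signal to the cell, and SF-1 acts on the promoters of steroidogenic genes. Lhcgr (ENSMUSG00000024107, chromosome 17, 88716481 to 88791990, minus strand) measured 2.5, 8.93 and 6.41 CPM in wild type 1, 2 and 3, against 25.5, 10.5 and 10.4 CPM in knockout 1, 2 and 3. Knockout 1 lay well above the other 5 samples and the groups did not overlap. The log2 fold change of Lhcgr, 1.38 (SE 0.49), missed the threshold with edgeR (adjusted p = 0.113) and passed it with DESeq2 (adjusted p = 0.014). It rested on the fewest counts of the 10 genes, 85 to 938 per library. Without knockout 1 the log2 fold change of Lhcgr was 0.81 (SE 0.45, edgeR adjusted p = 0.379), and without wild type 1 it was 1.03 (SE 0.43, edgeR adjusted p = 0.215). Nr5a1 (ENSMUSG00000026751, chromosome 2, 38692656 to 38714542, minus strand) measured 30.8, 46.8 and 52.9 CPM in wild type 1, 2 and 3, against 42.8, 37.1 and 32.4 CPM in knockout 1, 2 and 3. All 3 knockout samples lay within the wild-type range, and the log2 fold change was -0.22 (SE 0.22, adjusted p = 0.565). This gene is also expressed in Sertoli cells, so its level is not that of Leydig cells alone.

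The 2 genes with estimates below 0 were the 2 richest in GC. The longest transcripts of Insl3 and Nr5a1 have 63.6% and 59.2% GC, and those of the other 8 genes have 41.9% (Lhcgr) to 49.96% (Cyp11a1). For Insl3 the fitted library trend alone amounted to 0.39, 0.34 and 0.25 on the log2 scale in wild type 1, 2 and 3 and to -0.30, -0.66 and -0.03 in knockout 1, 2 and 3. With the trends removed both estimates turned to above 0, to 0.23 for Insl3 (SE 0.30, adjusted p = 0.691) and 0.27 for Nr5a1 (SE 0.21, adjusted p = 0.487). With wild type 1 also left out, Insl3 was at -0.02 (SE 0.24) and Nr5a1 at 0.14 (SE 0.21). Of the other 8, Hsd3b6 (1.51), Cyp17a1 (1.14), Hsd17b3 (0.93), Star (0.75), Hsd3b1 (0.15) and Cyp11a1 (0.11) moved by 0.1 or less. Akr1cl went from 0.87 to 0.74, and Lhcgr from 1.38 to 1.07. In that fit 0 of the 10 genes were called, and their median log2 fold change was 0.75.

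**Figure D2:**
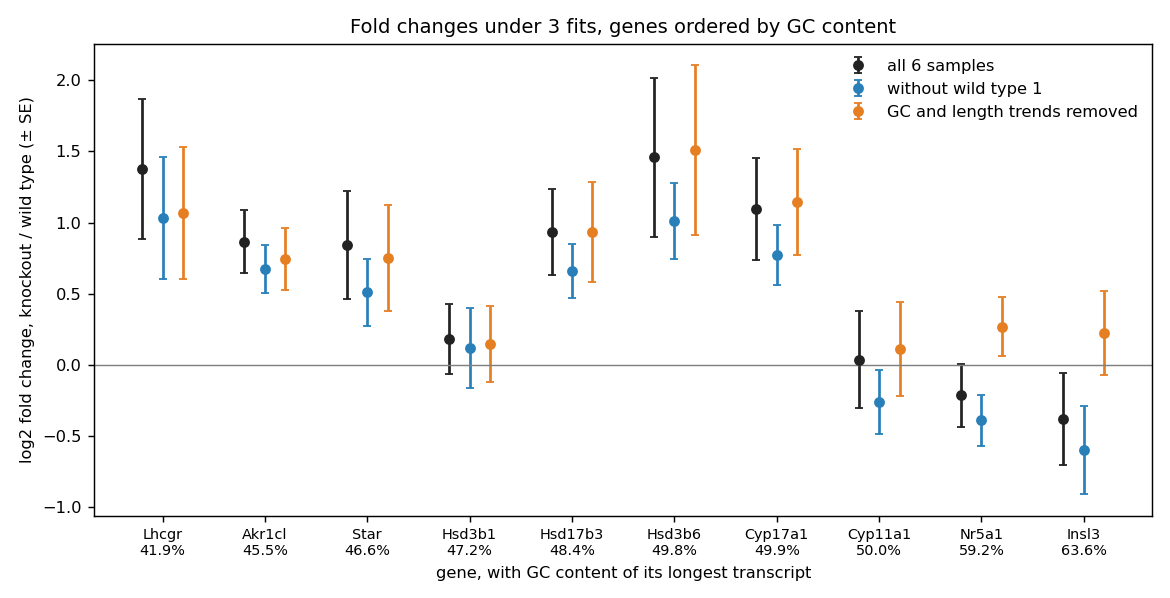
Points give the log2 fold change, knockout over wild type, with bars of 1 SE, for the fit to all 6 samples (black), without wild type 1 (blue) and with GC and length trends removed (orange), and genes are ordered from left to right by GC content. Insl3 and Nr5a1, at the right, lie below 0 in the black and blue fits and above 0 in the orange fit, while Hsd3b6, Cyp17a1 and Hsd17b3 lie above 0 in all 3.

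Wild type 1 was the lowest wild-type sample for all 10 genes and the lowest of all 6 samples for 8 of them, the exceptions being Hsd3b1 and Insl3. Over all tested genes, wild type 1 was the lowest wild-type sample for 41.6% and the lowest of all 6 samples for 24.6%. Relative to the mean of wild type 2 and 3, wild type 1 held 0.168 times the Hsd3b6 level, 0.325 times that of Lhcgr, 0.346 times that of Star and 0.359 times that of Cyp17a1. Nr5a1, at 0.619, and Hsd3b1, at 0.833, were the least reduced there. The level in wild type 1 was under 50% of that mean for 6 of the 10 genes and for 8.75% of all tested genes, where the median ratio over all tested genes was 0.986. Wild type 2 and 3 were closer to each other, with ratios from 0.809 for Hsd3b6 to 1.5 for Star. Without wild type 1 the median log2 fold change of the 10 genes was 0.58 in place of 0.85, and 0 were called, in a fit that called 5 of all tested genes.

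Ratios between 2 genes of the same library do not depend on how libraries are scaled, so the balance among the 10 genes was compared within each sample, a comparison added after seeing the data. The ratio of Cyp17a1 to Insl3 counts was 0.279, 0.41 and 0.415 in wild type 1, 2 and 3 and 1.01, 1.57 and 0.873 in knockout 1, 2 and 3. Insl3 made up 48.1% to 54.2% of the counts of the 10 genes in wild type and 20.7% to 36.0% in knockout. The ratio of Cyp17a1 to Cyp11a1, 2 enzymes of nearly equal GC content, was 2.19, 2.35 and 2.56 in wild type and 6.55, 3.41 and 5.78 in knockout. Wild type 1, low in both genes, had nearly the same ratio as the other wild-type samples. The ratio of Hsd3b6 to Hsd3b1 was 0.241, 1.02 and 1.39 in wild type and 2.26, 1.99 and 2.51 in knockout.

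Of the 45 ratios among the 10 genes, 25 did not overlap between wild type and knockout, or 55.6%, against 38.9% of all pairs of tested genes that averaged 5 CPM or more and had counts in every sample. All 24 ratios of Cyp11a1, Hsd3b1, Insl3 or Nr5a1 to one of the other 6 genes were lower in knockout without overlap. For 1 of them the gap was negligible, as Star to Hsd3b1 was 0.923 in both wild type 2 and knockout 1 when rounded. Within those 4 genes 0 of 6 ratios separated the groups, and within Star, Hsd3b6, Cyp17a1, Hsd17b3, Lhcgr and Akr1cl 1 of 15 did, Hsd3b6 to Hsd17b3. The 4 and the 6 were grouped from these ratios, so the pattern is a description and carries no test. Leaving out wild type 1 cannot make separate groups overlap, so it says nothing more about these 24. With the GC and length trends removed, 17 of all 45 ratios did not overlap. The share over all pairs of tested genes was not computed with those trends removed, so these counts have no background beside them. Of the 24 ratios, 16 did not overlap in that case. The 8 that then overlapped were 3 ratios with Star, 3 with Lhcgr and 2 with Akr1cl, while the ratios of Cyp17a1, Hsd3b6 and Hsd17b3 to the 4 genes did not overlap.

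**Figure D3:**
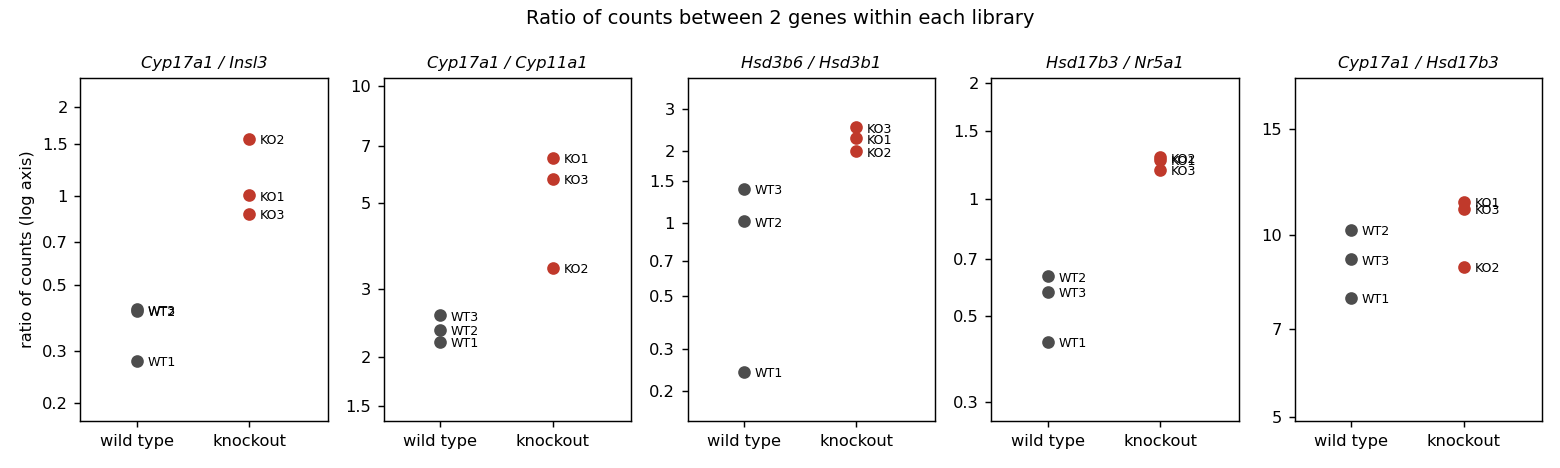
Each panel gives the ratio of counts of 2 genes (vertical axis, logarithmic) in each wild-type (grey) and knockout (red) library. The ratios of Cyp17a1 to Insl3, Cyp17a1 to Cyp11a1, Hsd3b6 to Hsd3b1 and Hsd17b3 to Nr5a1 do not overlap between the groups, whereas that of Cyp17a1 to Hsd17b3, at 7.88 to 10.2 in wild type and 8.87 to 11.4 in knockout, does.

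Levels of different genes were compared as CPM per kilobase of annotated exon. In wild type Insl3 had the highest level, 951 ± 309 CPM per kilobase (mean ± SD, n = 3), followed by Cyp17a1 (82.3 ± 38.9), Hsd3b1 (31.9 ± 3.69), Hsd3b6 (30.0 ± 20.5), Cyp11a1 (19.7 ± 8.75), Hsd17b3 (17.6 ± 7.0), Akr1cl (12.4 ± 3.46), Nr5a1 (10.3 ± 2.69), Star (9.62 ± 5.26) and Lhcgr (0.778 ± 0.424). The Insl3 figure is the least certain, since most of its 623 exon bases are shared with Jak3. From Hsd3b1 down to Star, each gene overlapped the next in that order over the wild-type samples. Within each of the 3 wild-type libraries, however, Cyp11a1 lay above Hsd17b3, Hsd17b3 above Akr1cl and Akr1cl above Nr5a1 by this length. Hsd3b1 and Hsd3b6, Hsd3b6 and Cyp11a1, and Nr5a1 and Star changed places between libraries. In knockout Hsd3b6 (82.5 ± 25.6 CPM per kilobase) stood above Hsd3b1 (36.1 ± 12.2) in every sample without overlap, and Insl3 (731 ± 275) and Cyp17a1 (176 ± 39.3) again led. Hsd3b1 with Hsd17b3 (33.6 ± 5.55), Akr1cl (22.7 ± 2.82) with Cyp11a1 (20.2 ± 5.25), and Cyp11a1 with Star (17.3 ± 3.26) overlapped there. Exon length counts every annotated exon, and with the longest transcript as the length the wild-type level of Akr1cl was 29.7 in place of 12.4 CPM per kilobase. By that length Akr1cl lay above Hsd17b3 in every wild-type library, at 20.2, 33.3 and 35.5 against 10.3, 23 and 23.7. In knockout the mean of Akr1cl, 54.1, was then above that of Hsd3b1, 36.1. The place of Akr1cl in the order therefore depends on the length used.

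Other genes of the pathway, 85 tested genes in 8 lists, showed few calls: 0 rose and 1 fell (edgeR adjusted p under 0.05), with a median log2 fold change of 0.18. At an unadjusted p under 0.05, 9 of them (10.6%) were higher and 4 (4.71%) lower, against the 12.1% and 15% of all tested genes. DESeq2 called 8 (9.41%) higher and 3 (3.53%) lower, against 8.49% and 9.7% of all its genes. The gene that fell was Amhr2, the receptor for anti-Müllerian hormone, whose mean was 225.3 ± 24.9 CPM in wild type against 137.3 ± 25.0 CPM in knockout (SD, n = 3). Its log2 fold change was -0.71 with an SE of 0.17 (edgeR adjusted p = 0.0406). Amhr2 is expressed in Sertoli as well as Leydig cells, and its log2 fold change was -0.26 with the GC and length trends removed. The values that follow all missed the threshold with edgeR, and each is followed by the estimate with those trends removed.

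Among 12 genes of cholesterol supply 7 estimates were above 0. Tspo, an outer mitochondrial membrane protein gene, was at 4.37, 4.73 and 4.4 CPM in wild type and 2.55, 2.67 and 2.85 CPM in knockout (log2 fold change -0.74, SE 0.21, adjusted p = 0.0644, and -0.25 with trends removed). Stard3, a cholesterol transporter gene of late endosomes, had a log2 fold change of -0.66 (SE 0.20, adjusted p = 0.0742, and -0.35 with trends removed). Lipe, the hormone-sensitive lipase gene that frees stored cholesterol, had the highest level of this list, 92.0 CPM per kilobase over all samples, and a log2 fold change of 0.19 (SE 0.18, and 0.47 with trends removed). It is also expressed in germ cells. Among 7 redox partner genes, which pass electrons to the P450 enzymes, the smallest p values were those of Cyb5r3 (0.48, SE 0.24, adjusted p = 0.23, and 0.77 with trends removed) and the ferredoxin reductase gene Fdxr (-0.41, SE 0.20, adjusted p = 0.231). The Fdxr estimate turned to 0.12 with trends removed (SE 0.26). Cyb5b had the highest level at 16.3 CPM per kilobase, with a log2 fold change of 0.52 (SE 0.31, and 0.42 with trends removed).

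Among 17 other steroid-metabolising enzyme genes, Hsd17b11 was at 6.61, 12.8 and 9.6 CPM in wild type and 22.3, 18.5 and 14.7 CPM in knockout (log2 fold change 0.94, SE 0.27, adjusted p = 0.064, and 0.80 with trends removed). Aldh1a1, a retinaldehyde dehydrogenase gene and the highest of that list at 37.0 CPM per kilobase, was at 83.8, 159.6 and 155.6 CPM in wild type and 232.7, 298.3 and 164.7 CPM in knockout (0.80, SE 0.28, adjusted p = 0.113, and 0.69 with trends removed). Both were lowest in wild type 1, as were 8 of the 10 Leydig cell genes. Of 17 genes of luteinizing hormone and cAMP signalling, the phosphodiesterase gene Pde4d had 0.74 (SE 0.22, adjusted p = 0.0747, and 0.61 with trends removed) and the anchoring protein gene Akap1, the highest of the list at 233 CPM per kilobase, had -0.38 (SE 0.14, adjusted p = 0.117, and -0.16 with trends removed). Of 14 transcription factor genes 12 had estimates above 0, with a median of 0.41, and 0.46 with trends removed. Wt1, a Sertoli cell gene, had 0.87 (SE 0.28, adjusted p = 0.0901, and 1.07 with trends removed). Nr5a2 had 2.10 on 0 to 18 counts per library (SE 0.82, adjusted p = 0.14, and 1.90 with trends removed). Nr4a1, the highest at 14.6 CPM per kilobase, had 0.47 (SE 0.38, and 0.78 with trends removed).

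Among 15 other Leydig cell and precursor markers the median log2 fold change was 0.00, and 0.18 with trends removed. Vcam1, an adhesion molecule gene, was at 17.1, 41.3 and 39.96 CPM in wild type and 93.5, 71.6 and 49.6 CPM in knockout, with no overlap (log2 fold change 1.13, SE 0.35, adjusted p = 0.0776, and 0.71 with trends removed). Fabp3, a fatty-acid-binding protein gene with the highest level of the list at 169 CPM per kilobase, had 0.29 (SE 0.21, adjusted p = 0.423, and 0.57 with trends removed).

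Markers of other cell types also differed between the samples. Summed over 20 Sertoli cell genes, all tested, levels ran from 1482 to 1980 CPM in wild type and from 1797 to 2651 CPM in knockout. The sums were 498.8 to 559.2 and 542.6 to 628.6 CPM over 12 peritubular myoid genes, 107.4 to 192.3 and 143 to 178 CPM over 14 macrophage genes, and 48.3 to 93.7 and 65.6 to 86.7 CPM over 12 endothelial genes. None of these genes was at 0 counts in any library. At an unadjusted edgeR p under 0.05, 8 of the 20 Sertoli genes (40%) were higher and 2 (10%) lower. Over all tested genes the shares were 12.1% and 15%. DESeq2 called 5 (25%) higher and 1 (5%) lower, against 8.49% and 9.7% of all its genes. For the 10 Leydig cell genes these counts were 5 and 0, and 4 and 0 with DESeq2. At the same unadjusted p, 2, 1 and 2 genes of the myoid, macrophage and endothelial lists were higher and 0, 0 and 2 lower. Wild type 1 had the lowest sum of all 6 samples in each of the 4 lists, at 0.776 times the mean of wild type 2 and 3 for Sertoli, 0.902 for myoid, 0.599 for macrophage and 0.578 for endothelial genes, against 0.476 for the 10 Leydig cell genes. The sum over 12 spermatid genes was lower in every knockout sample and did not overlap between groups, at 19010 to 21390 CPM in wild type and 13810 to 15770 CPM in knockout. Abundant genes such as Prm1, Prm2, Tnp1 and Tnp2 make up most of that sum. The mean of centred log2 CPM over the same list, which weights genes equally, overlapped between groups, 5 of the 12 estimates were above 0, and the list's median log2 fold change was -0.23, or -0.03 with trends removed. At an unadjusted edgeR p under 0.05, 2 of the 12 spermatid genes (16.7%) were higher and 4 (33.3%) lower, against 12.1% and 15% of all tested genes. DESeq2 called 1 (8.33%) of these spermatid genes higher and 4 (33.3%) lower, against 8.49% and 9.7% of all its genes. The sum over 10 pachytene spermatocyte genes was 6088 to 8067 and 5362 to 6338 CPM, with wild type 1 the highest. Mitochondrial genome genes held 0.661% to 0.935% of counts in wild type and 1.54% to 5.74% in knockout. The part of cell composition in the levels of the Leydig cell genes was not tested.

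**Figure D4:**
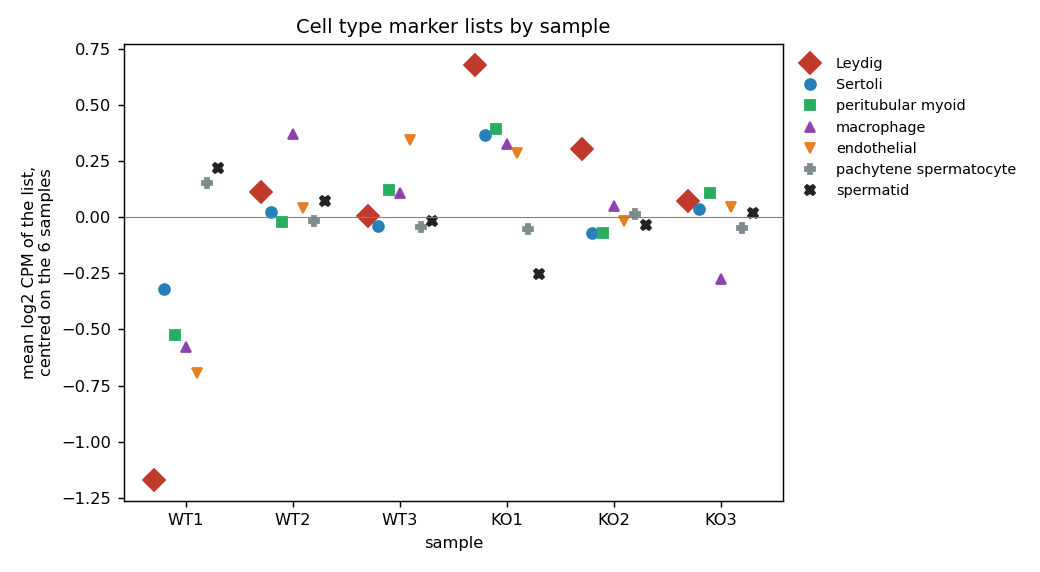
Each symbol is the mean over a marker list of log2 CPM, centred on the 6 samples (vertical axis), by sample (horizontal axis, with symbols set side by side), for 7 of the 9 lists, with the erythroid and spermatogonia lists not drawn. The Leydig cell genes (red diamonds) lie at -1.17 in wild type 1 and at 0.68 in knockout 1, the lowest and highest of the points drawn, and the other somatic lists also lie below 0 in wild type 1.

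The genes whose profile over the 6 samples came nearest to the mean profile of the 10 were sought among 10408 protein-coding genes averaging 5 CPM or more, by the root mean square difference of centred log2 CPM. They were Fads1, a fatty acid desaturase gene (0.047), F13a1, a coagulation factor gene (0.0646), the Wnt co-receptor gene Lrp6 (0.068), the aldolase gene Aldoc (0.0757) and the adhesion gene Parva (0.0767), where a gene at the same level in all samples would have 0.567. Fads1 measured 34.6, 78.3 and 79.1 CPM in wild type, against 115.9, 93.5 and 79.0 CPM in knockout. Of the 10 genes themselves Hsd17b3 (0.174) and Star (0.238) were nearest to their common mean, and Insl3 (0.648) and Hsd3b6 (0.724) were farthest.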

How the data were processed

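The deposited files hold raw counts per Ensembl gene, 1 file per sample, which the authors had not normalized. The submitters' processing notes name Trimmomatic, HISAT2, HTSeq and the build mm10. The sources used here do not give versions, the annotation release, strand use or the treatment of multi-mapping reads. GENCODE M21 (GRCm38, the assembly of mm10) gave symbols for 51633 of 51826 identifiers, with 193 unmatched. Genes were fitted with edgeR 4.0.16 (R 4.3.3, quasi-likelihood test, TMM scaling, filterByExpr, no covariates, all 6 samples), with p adjusted over 21518 genes. CPM values are TMM-scaled. SE was derived from the F statistic and the estimated fold. Log2 CPM used a prior count of 2. Named genes are the 10 members, Kifc1, the called genes, the 2 smallest p and the highest level per kilobase of each of 8 pathway lists, and the 5 nearest profiles. The members, the lists and the motifs were chosen with earlier results of these data known. Genes named beside these (Jak3, Hsd3b2, Hsd3b3) share sequence with members or were chosen after their values were seen. Trends with GC content and length were splines with 5 degrees of freedom on 12749 genes. Alternatives comprised 17 other fits, including DESeq2 1.42.0, and the fitting code was first tested on simulated counts. Chi-square per degree of freedom between samples of a group was 15.4 to 135, above sampling noise. The highest values were those of knockout 2, with 135 against knockout 1 and 123 against knockout 3, where knockout 1 against knockout 3 had 31. The pairs of wild type 1 had 33.2 and 50.3.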

Additional observations from a re-analysis of the deposited data

How the results depend on the processing

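Over all genes the count of calls was 1770, and it was 3305 with DESeq2, 1010 without an expression filter, 15 with GC offsets and 29 with GC and length offsets. It was 21 with a replicate block, 6 with the block and both offsets, and 4 with both offsets and wild type 1 left out. With 1 sample left out it ran from 1 (without knockout 1 or wild type 2) through 5 (without wild type 1), 327 (without knockout 3) and 425 (without wild type 3) to 3149 (without knockout 2). Of the 10 genes, 4 were called higher with DESeq2 (Akr1cl, Cyp17a1, Hsd17b3 and Lhcgr). The count was 0 with library size alone, without the filter, with the replicate block, with either set of offsets, and with any 1 sample left out (0 to 0). Among pathway genes, 11 were called with DESeq2, 0 with both offsets and 0 without wild type 1. The causes were not tested.

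Same-numbered samples did not deviate together (correlations of -0.473, -0.12 and -0.14). So few samples cannot decide whether the numbers pair them, and the labels do not say. The block changed the log2 fold change of Akr1cl to 0.90 (edgeR adjusted p = 0.103). Star, Hsd3b6, Cyp17a1, Hsd17b3, Lhcgr and Akr1cl had estimates above 0 in all 17 other fits. The estimate of Cyp11a1 turned to -0.26 without wild type 1, -0.18 without knockout 2 and -0.18 without wild type 1 with both offsets. With 1 sample left out it ran from -0.26 to 0.31. That of Hsd3b1 was -0.065 without knockout 1 and ran from -0.065 to 0.44 with 1 sample left out, and those of Insl3 were 0.21 with GC offsets, 0.23 with both offsets and 0.24 with both and the replicate block, but -0.02 with both offsets and wild type 1 left out. Nr5a1 had 0.26, 0.27 and 0.27 under the same 3 fits, and 0.14 with both offsets and wild type 1 left out. Lhcgr, with 85 to 938 counts, is the least precisely counted of the 10.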

Other observations

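Genes of the adrenal cortex had few counts. Mc2r, the adrenocorticotropin receptor gene, had 0 counts in all 6 libraries, which allows a level of up to 0.0775 to 0.102 CPM by counting error alone. Cyp11b2, the aldosterone synthase gene, had 0 to 4 counts per library and Cyp11b1, the 11-beta-hydroxylase gene, 0 to 22. Cyp21a1, the 21-hydroxylase gene and the 1 gene of 4 that was tested, had 1.44, 1.65 and 2.76 CPM in wild type and 0.761, 2.5 and 0.594 CPM in knockout. The groups overlapped, and the estimate was -0.60 on the log2 scale (SE 0.54, edgeR adjusted p = 0.516, and -0.14 with the GC and length trends removed).

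Rxfp2, the INSL3 receptor gene, did not pass the test either and was at 17.9, 9.47 and 11.2 CPM in wild type and 10.1, 12.2 and 8.2 CPM in knockout (log2 fold change -0.34, SE 0.27, edgeR adjusted p = 0.462, and -0.52 with the GC and length trends removed). Prlr, the prolactin receptor gene, chosen after its values were seen, was at 3.35, 14.7 and 15.3 CPM in wild type and 37.9, 26.3 and 20.4 CPM in knockout, without overlap and with wild type 1 the lowest (log2 fold change 1.35, SE 0.49, edgeR adjusted p = 0.12, and 0.83 with the GC and length trends removed).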
